A study of Mus musculus with 9 samples.

Results

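The genes described here encode transcription factors of the Fox, Sox, Tbx, Gata, sine oculis (Six2 and its relatives) and Irx families. Members were the protein-coding genes of the deposited table whose symbols follow these family names. This gave 68 of 27370 genes, namely 32 Fox, 14 Sox, 9 Tbx, 5 Gata, 4 sine oculis and 4 Irx genes. PolyA RNA of sorted stromal cells was counted in 9 libraries, 3 per group, each pooled from 2 mice aged 4 months. All mice carried Wt1CreERT2, RosatdTomato and CD64DTR, so the controls bore the toxin receptor as well. The first group, FRC, holds tdTomato-negative fibroblastic reticular cells from lymph nodes of untreated mice. The second, steady-state RPF, holds tdTomato-positive red pulp fibroblasts from spleens of untreated mice. The third, depleted RPF, holds the same sort from mice given diphtheria toxin, which kills cells bearing the receptor under CD64 control, macrophages above all. No toxin dose or time is stated in the labels. RPF are limited to cells whose Wt1-driven Cre had recombined, and CD45-positive cells were depleted before the sort.

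These families bind DNA through different folds: a winged helix in Fox factors, an HMG box in Sox factors, a T-box in Tbx factors, zinc fingers in Gata factors and homeodomains in the sine oculis and Irx factors. Many members set the regional identity of embryonic mesenchyme, and adult fibroblasts often keep such a positional code. Others are broadly expressed, such as the FOXO factors, which insulin and growth factor signals keep out of the nucleus, and a few define blood or endothelial lineages. Sine oculis factors act with Eya cofactors, Gata factors with Zfpm and Lmo2 complexes, and Foxf1 lies downstream of Hedgehog signals in mesenchyme.

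The total count ran from 25414645 to 43879806 per library, of which the members took 0.0661% to 0.088%. The count of 4 Y-linked genes was 0 in FRC replicate 1, 1 in RPF steady replicate 1 and 2285 to 6101 elsewhere. Levels are CPM after TMM scaling. The FRC had 74.1 CPM of Pdpn, encoding the sorted marker gp38, and the steady-state RPF 0.0981 CPM. Wt1 was at 1.64 CPM in FRC, 62.1 in steady-state and 34.3 in depleted RPF. Markers of red pulp macrophages summed to between 73.8 and 77.6 CPM in FRC, 217 and 245 CPM in steady-state RPF and 3.77 and 16.1 CPM in depleted RPF, and 9 of 11 tested were called lower after depletion. The part of these other cells in any result was not tested, and in bulk RNA fewer cells of a type and less RNA per cell cannot be told apart.

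Of the 68 members, 3 had no count in any library and 8 had counts in 1 library alone. A further 26 had counts in all 9. Sums over all members were 1040 to 1141 CPM in FRC, 562 to 699 CPM in steady-state RPF and 683 to 789 CPM in depleted RPF. A mean of at least 10 CPM was reached by 23 members in FRC, 16 in steady-state RPF and 15 in depleted RPF. The filter on low counts left 45 members for testing, and the other 23 stayed at or below a mean of 1.51 CPM. A member present in FRC alone passed this filter through FRC, so the counts of tested members below describe the set and do not stand for all 68.

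Per kilobase of the median transcript length in the table, the most abundant member in FRC was Tbx15, at 133 CPM per kb, followed by Foxn3 at 83.4 CPM per kb. In steady-state RPF the highest were Foxk2 at 63.7, Foxs1 at 62.6 and Foxn3 at 61.0 CPM per kb. In depleted RPF Foxs1 led with 142 CPM per kb, and Foxk2 and Tbx3 followed at 78.5 and 25.4 CPM per kb. In plain CPM, Gata6 led FRC at 132 CPM, and Foxs1 made up 13.3% of the members' sum in steady-state and 25.8% in depleted RPF. Tbx15, Foxn3 and Foxk2 have short annotated medians (653, 656.5 and 607 bases), which raises their values on the per-length scale.

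Steady-state RPF were compared with FRC to see which factors set these sorted cells apart. Organ, cell type and tdTomato gate change together here, so their parts cannot be told apart. Where the text says between the organs, it means this comparison of sorted cells. Gata6, Tbx15, Foxf1 and Tbx18 were abundant in FRC and near 0 in steady-state RPF, and so, at lower levels, were Irx1, Foxq1 and Tbx5. Sox9 was also abundant in FRC, and low but present in steady-state RPF at a mean of 2.42 CPM. RPF instead had more Gata1, Gata2, Sox13, Sox12, Tbx2, Tbx3 and Sox5. Of the 45 tested members, 15 were called lower in RPF (33.3%) and 7 higher (15.6%) at an edgeR adjusted p under 0.05. Among all 15103 genes tested, 14.4% were called lower, 11.5% higher and 25.9% either way. The median log2 fold change was -1.02 over the tested members and -0.02 over all genes tested. Among the 45 tested members, 23 were lower and 9 higher in RPF without overlap of libraries, against 23.1% and 21.5% of all genes. Beside these factors, 8 of 10 fibroblast markers were called lower in RPF and 2 higher, with sums of 53082 to 58182 CPM in FRC and 4854 to 6023 CPM in RPF. The matrix gene Dcn went from 26902 CPM in FRC to 30.6 CPM in RPF, and Pdgfrb and Wt1 were the 2 higher. Wt1 drives the Cre behind the tdTomato gate and Pdpn encodes the sorted marker gp38, so this list includes genes tied to the sort. The part of this difference in the levels of the factors was not tested.

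**Figure D1:**
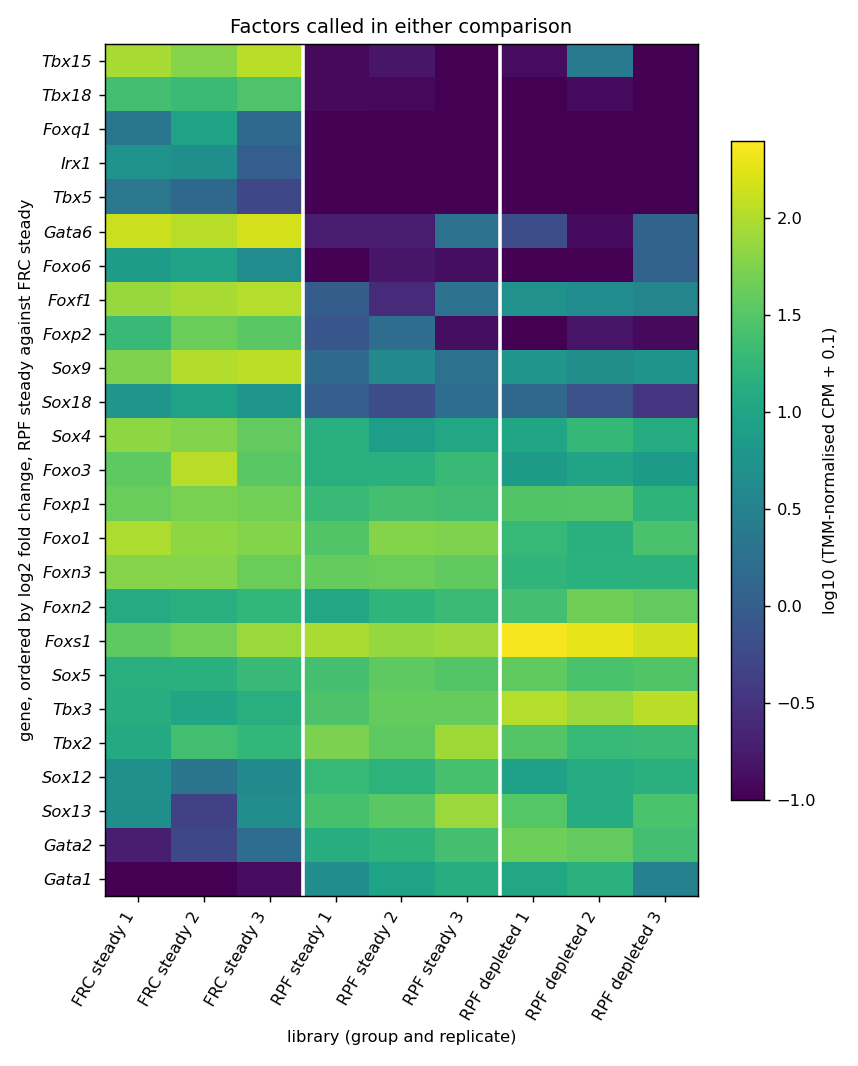
Level of 25 of the 26 members called in either comparison (rows) in each of the 9 libraries (columns), as log10 of TMM-normalised CPM + 0.1. Rows are ordered by the fold change of steady-state RPF against FRC. The top rows, from Tbx15 to Foxp2, are brighter in the 3 FRC columns than in the 6 RPF columns, while Gata1 in the bottom row shows the reverse.

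The factors called higher in FRC included Gata, Tbx, Fox, Sox and Irx genes. Gata6 (ENSMUSG00000005836, chromosome 18, 11052508 to 11085635), a zinc finger factor of mesoderm and endoderm organs, was at 134, 109 and 151 CPM in the FRC libraries. In steady-state RPF it was at 0.0851, 0.079 and 1.82 CPM. Every FRC library lay above every RPF library, with a log2 fold change of -7.76 (SE 1.33, edgeR adjusted p = 0.00266). After depletion Gata6 stood at 0.546, 0.027 and 1.12 CPM, within the range of the steady-state libraries (edgeR adjusted p = 0.983).

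Among T-box genes, Tbx15 (ENSMUSG00000027868, chromosome 3, 99240381 to 99354259), which patterns limb, skin and adipose mesenchyme, read 90.5, 60.6 and 110 CPM in FRC and between 0 and 0.0592 CPM in steady-state RPF. Its log2 fold change was -11.32 (SE 1.87, edgeR adjusted p = 0.00217), on 4 counts in the RPF libraries together. In depleted RPF it had 1, 87 and 0 counts, so replicate 2 held nearly all of them (edgeR adjusted p = 0.114, and 0.0455 without RPF depleted replicate 3). Tbx18 (ENSMUSG00000032419, chromosome 9, 87702800 to 87731260), a factor of embryonic mesenchyme and mural cells, read 24.2, 20.7 and 29.2 CPM in FRC. Steady-state RPF had 2 Tbx18 counts in all, a 1591-fold ratio whose 95% counting interval spans 440 to 13147 (edgeR adjusted p = 4.68e-05). Depleted RPF had 1 Tbx18 count. Tbx5, a heart and forelimb factor, was low in FRC at 2.12, 1.30 and 0.447 CPM and had 0 counts in all 6 RPF libraries, which is at least 54.7-fold lower in the steady state if the summed RPF count is set to 3 (edgeR adjusted p = 0.0269). Mural cell markers, which can share Tbx18, summed to 2772 to 3599 CPM in FRC and 1247 to 1457 CPM in steady-state RPF. Of the 7 tested, 3 were called lower in RPF and 1 higher, with Rgs5 at 323 and 0.138 CPM, and their part in the result was not tested.

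The promoter of Tbx18 is shown because this gene had the lowest adjusted p among the members. The 250 bases before its start were taken from RefSeq on GRCm38.p6, and matches to the motifs searched would stand in capitals.
Tbx18 (chr9:87731261-87731510, minus strand): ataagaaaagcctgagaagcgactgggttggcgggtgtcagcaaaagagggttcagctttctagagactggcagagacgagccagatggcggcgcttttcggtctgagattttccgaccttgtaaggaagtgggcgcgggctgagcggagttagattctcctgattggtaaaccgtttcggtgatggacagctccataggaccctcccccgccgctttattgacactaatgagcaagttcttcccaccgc
The forkhead letters searched, on both strands as for all motifs, were GTAAACA, the core that FOXO and related winged helix proteins prefer. Those for the zinc fingers of Gata proteins were AGATAA, whose core gave the family its name. Those for the HMG box of Sox proteins were AACAAT, which is bound in the minor groove. T-box proteins were represented by GGTGTG, the core of their known site. The letters for Gli proteins, the effectors of Hedgehog signals, were GACCACCCA. They do not overlap one another in the windows printed here, and none stood in this window. The shares of all 32841 RefSeq promoter windows with a match were 3.17%, 9.99%, 9.43%, 16.3% and 0.225%. Of the members, 40 had at least 1 promoter in the table, with 53 windows in all. Matches were found in 2 of these for the forkhead letters, 4 for Gata, 2 for Sox, 7 for T-box and 0 for Gli. Taking the window with most CpG pairs per gene, members had a median of 18.5 CpG pairs and 65.2% G and C, against 6 and 52.8% over 27018 symbols.

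Foxf1 (ENSMUSG00000042812, chromosome 8, 121084386 to 121088144), the winged helix factor of visceral mesenchyme, was at 74.2, 90.0 and 105 CPM in FRC and 0.894, 0.158 and 1.85 CPM in steady-state RPF. The FRC mean was 92.6-fold higher, a log2 fold change of -6.57 (SE 0.75, edgeR adjusted p = 0.000242). The long noncoding gene Fendrr ends 1276 bases before the start of Foxf1. It read 1.37, 4.37 and 3.52 CPM in FRC and had 2 counts in steady-state RPF (edgeR adjusted p = 0.0146). Foxc2, a vascular and lymphatic factor 28 kb further on, had 137, 193 and 83 counts in FRC and 55, 2 and 0 in steady-state RPF (edgeR adjusted p = 0.204). Foxl1, the next gene after 9.0 kb, had 0, 1 and 26 counts in FRC and 0 in every RPF library.

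The Hedgehog list, which holds regulators and readouts of the pathway upstream of Foxf1, had 14 genes, of which 12 were tested. Of these, 8 were called lower in RPF than in FRC and 0 higher, against 14.4% and 11.5% of all genes tested. Their median log2 fold change was -2.96 against -0.02 over all genes tested. The 10 fibroblast markers, which include the sort-linked Wt1 and Pdpn, were 8 lower and 2 higher, with a median of -2.60. The Hedgehog list was chosen with earlier results of these data known, and its link to the level of Foxf1 was not tested. Gli1, a transcription factor that is itself induced by the pathway, read 30.7, 24.9 and 29.8 CPM in FRC and between 0.0331 and 0.0987 CPM in steady-state RPF (edgeR adjusted p = 0.00125). Hhip, the induced decoy receptor, was at 47.5, 19.6 and 47.7 CPM in FRC and 1 count in steady-state RPF (edgeR adjusted p = 0.00112). The ligand gene Shh, the co-receptors Cdon, Boc and Gas1 and the effector Gli3 were among the others. Ptch1, also induced by the pathway, was at 39.2 CPM in FRC and 26.1 CPM in RPF (edgeR adjusted p = 0.261), and the signal transducer Smo at 105 and 109 CPM (edgeR adjusted p = 0.921). After depletion Gas1 rose 3.18-fold and Smo fell, while Foxf1 rose as described with the depletion results. Cdon fell from 13, 152 and 4 counts to 2, 0 and 4 counts, mostly through RPF steady replicate 2 (edgeR adjusted p = 0.0483).

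**Figure D2:**
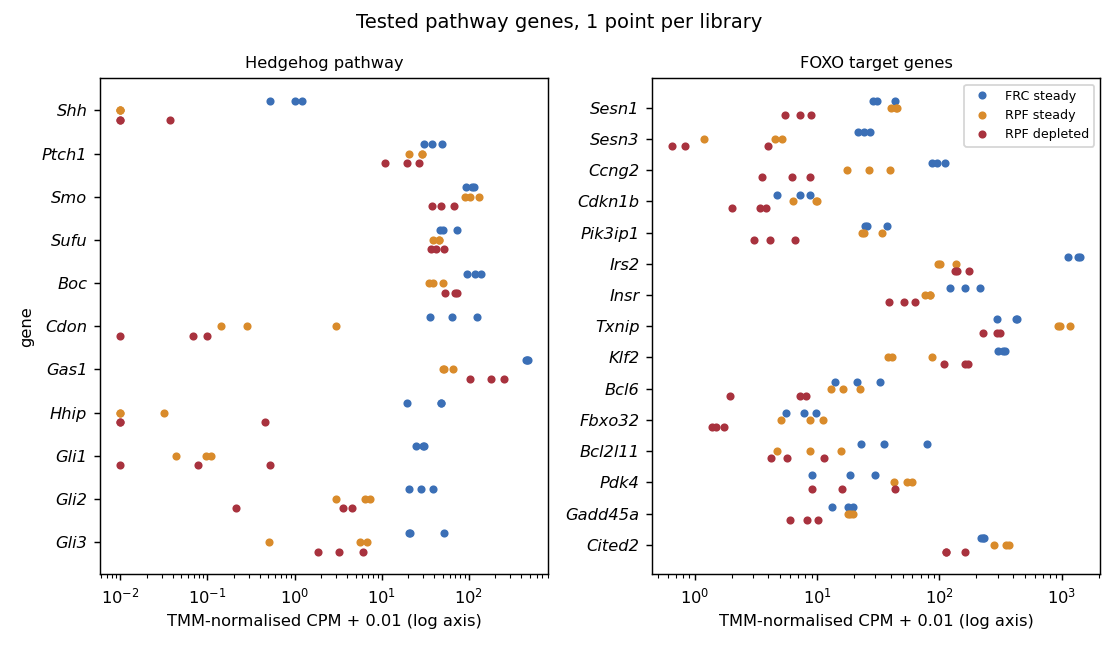
TMM-normalised CPM + 0.01 on a log axis for 11 of the 12 tested Hedgehog genes and the 15 tested FOXO target genes, with 1 point per library and colours for the 3 groups. Gli1 and Hhip stand above 10 CPM in FRC and below 1 CPM in all RPF libraries, and Sesn1, Pik3ip1 and Txnip stand lower in depleted than in steady-state RPF.

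Sox genes went both ways between the organs, with 3 of 9 tested lower and 3 higher in RPF. Sox9 (ENSMUSG00000000567, chromosome 11, 112782224 to 112787760), the master factor of cartilage, was at 55.5, 100 and 116 CPM in FRC and 1.36, 4.11 and 1.79 CPM in steady-state RPF. The FRC mean was 37.4-fold higher (log2 fold change -5.22, SE 0.50, edgeR adjusted p = 8.12e-05). Of 10 cartilage genes that Sox9 drives in chondrocytes, 9 were in the table, 2 were tested and 1 was called, Cnmd, at 44.2, 68.2 and 39.5 CPM in FRC and 0.0213 to 0.0395 CPM in RPF (edgeR adjusted p = 1.08e-06). Col2a1 and Acan, its classic targets, were at 0.0199 and 0.397 CPM in FRC. Sox4, of the SoxC group, read 65.7, 57.6 and 38.4 CPM in FRC and 13.8, 7.76 and 10.4 CPM in RPF (edgeR adjusted p = 0.00112). Sox18, an endothelial factor, was at 6.98 CPM in FRC and 1.01 CPM in RPF (edgeR adjusted p = 0.0444), and this call was lost in 11 of 19 alternatives, up to 0.164. Markers of blood endothelium summed to 66.0 to 86.0 CPM in FRC and 68.5 to 171 CPM in RPF, with 1 of 9 called higher in RPF (Kdr, 0 counts in FRC) and 0 lower. Sox8, close in sequence to Sox9, was at 25.0, 12.7 and 23.5 CPM in FRC and 5.49, 2.47 and 3.47 CPM in RPF, without overlap (edgeR adjusted p = 0.0559, and 0.00824 in DESeq2).

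Among the homeodomain genes, Irx1 was called lower in RPF, and Six2 and Six5 did not pass the threshold. Six2, a kidney progenitor factor, had 141, 142 and 80 counts in FRC and 25 in RPF steady replicate 2 alone (edgeR adjusted p = 0.164). Six4 had 97, 1 and 1 counts in FRC and 0 in all RPF libraries. Six5, known from myotonic dystrophy, overlapped between the groups at 11.7, 4.09 and 16.1 CPM in FRC and 9.94, 8.15 and 7.31 CPM in RPF (edgeR adjusted p = 0.718). Irx1 had 175, 143 and 31 counts in FRC and 0 in all 6 RPF libraries, at least 155-fold lower in steady-state RPF against the floor of 3 counts (edgeR adjusted p = 0.0192). Irx2 had 49, 9 and 63 counts in FRC, while Irx3 and Irx5 had at most 11 counts in any of the 9 libraries.

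Of 6 listed partners of the sine oculis proteins, the Eya and Dach genes, 5 were in the table and 3 were tested. Among these 3, 1 was called lower in RPF than in FRC and 1 higher. Eya2 was at 247, 197 and 192 CPM in FRC and 0.0592 to 0.0851 CPM in steady-state RPF (edgeR adjusted p = 1.24e-06). Eya1 was at 0, 0 and 1.01 CPM in FRC and 25.9, 30.8 and 32.1 CPM in RPF (edgeR adjusted p = 0.0183). In depleted RPF Eya1 read 16.9, 6.15 and 1.34 CPM, below every steady-state library but spread over a wide range (edgeR adjusted p = 0.372).

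Further Fox genes were lower in RPF. Foxp2, a repressor known from neural and lung development, read 19.4, 43.2 and 34.3 CPM in FRC and 0.724, 1.54 and 0.0331 CPM in RPF (edgeR adjusted p = 0.00593). Its paralogue Foxp1 differed 2.09-fold, at 46.8 ± 5.55 and 22.4 ± 2.39 CPM (SD, n = 3, edgeR adjusted p = 0.0182). Foxo3, a stress and quiescence factor, was at 35.6, 108 and 34.1 CPM in FRC and 14.0, 14.3 and 19.8 CPM in RPF (edgeR adjusted p = 0.0151), so FRC replicate 2 stood far above the others. Foxo6 had 240, 261 and 145 counts in FRC and 4 in steady-state RPF (edgeR adjusted p = 0.0382). Foxq1 had 68, 275 and 46 counts in FRC and 0 in RPF, at least 173-fold lower in steady-state RPF against the floor (edgeR adjusted p = 0.0208). Foxf2, 64.8 kb from Foxq1, had 12, 95 and 3 counts in FRC and 0 in steady-state RPF (edgeR adjusted p = 0.0797). The broadly expressed Foxj2, Foxj3, Foxk1 and Foxk2 were at 45.5, 37.5, 12.6 and 25.2 CPM in FRC and 56.1, 30.5, 6.22 and 38.7 CPM in RPF, at edgeR adjusted p values of 0.405, 0.391, 0.137 and 0.0575. Foxk2 passed the threshold in DESeq2 (0.019) and with RLE and upper quartile scaling (0.0492 and 0.0234).

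Some calls of FRC factors were lost when 1 library was left out, which also leaves fewer libraries to test with. Leaving out 1 FRC or steady-state RPF library lowered the calls over all genes from 3908 to between 2838 and 3437. Without FRC replicate 2 the edgeR adjusted p was 0.0519 for Foxp1, 0.0525 for Foxq1 and 0.0534 for Irx1, and without FRC replicate 1 it was 0.0548 for Irx1. Without RPF steady replicates 1 and 2 in turn it was 0.0604 and 0.0601 for Foxo3, and 0.0502 and 0.0506 for Foxq1. Without RPF steady replicates 1 and 3 in turn it was 0.0715 and 0.0587 for Foxp1. For Foxo6 and Tbx5 the call was lost on leaving out any 1 of the FRC or steady-state RPF libraries, with values of 0.0599 to 0.116 and 0.0538 to 0.0791. For Sox18 it was lost without any of these 6 or RPF depleted replicate 2, at 0.0637 to 0.135. The calls of Gata6, Tbx15, Tbx18, Foxf1, Foxp2, Sox9 and Sox4 held in all 19 alternatives.

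Factors higher in RPF were fewer and included genes of blood lineages. Gata2 (ENSMUSG00000015053, chromosome 6, 88193891 to 88207032), needed for haematopoietic progenitors and endothelium, read 0.0911, 0.444 and 1.55 CPM in FRC and 13.1, 16.0 and 24.9 CPM in steady-state RPF. The RPF mean was 25.9-fold higher, a log2 fold change of 4.68 (SE 0.82, edgeR adjusted p = 0.00305). Depleted RPF had 44.6, 37.8 and 24.1 CPM, overlapping the steady state in replicate 3 (edgeR adjusted p = 0.385). Gata1 (ENSMUSG00000031162, chromosome X, 7959260 to 7978071), the master factor of red cells and megakaryocytes, had 1 count in the 3 FRC libraries and 212, 468 and 396 in steady-state RPF. That is an 806-fold ratio whose 95% counting interval spans 144 to 31866 (edgeR adjusted p = 0.000498). In CPM the steady-state libraries were at 4.51, 9.24 and 13.1 and the depleted libraries at 11.0, 15.2 and 3.06, which overlap (edgeR adjusted p = 0.942).

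Some erythroid genes were higher in RPF beside Gata1. The 11 erythroid markers summed to 63.4, 99.6 and 0.537 CPM in FRC, 206, 821 and 522 CPM in steady-state RPF and 753, 682 and 457 CPM in depleted RPF. Of the 11 tested, 4 were called higher in RPF (Klf1, Epor and Slc4a1 among them) and 0 lower, and Epor had 0 counts in FRC. Of the megakaryocyte and mast cell list, 3 of 5 tested were called higher in RPF (Pf4, Ppbp and Kit), with sums of 5.70 to 20.3 CPM in FRC and 20.8 to 31.9 CPM in RPF. The part of such cells in the levels of Gata1 and Gata2 was not tested. Among Gata cofactors, Zfpm1, which binds Gata1, was at 8.64 CPM in FRC and 22.1 CPM in RPF, and Zfpm2, which binds Gata4 and Gata6, at 57.3 and 9.79 CPM (0.00243 and 0.00203 for the edgeR adjusted p). Gata3, a T cell and innate lymphoid factor, had 1 count in FRC and 1, 5 and 75 counts in RPF (edgeR adjusted p = 0.0861), with T cell markers summing to 9.52 to 25.9 CPM in FRC and 1.29 to 4.52 CPM in RPF.

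The Sox and Tbx genes of RPF had intermediate levels in FRC. Sox13, of the SoxD group, was at 4.89, 0.375 and 4.47 CPM in FRC and 25.6, 34.2 and 78.5 CPM in steady-state RPF (14.2-fold, edgeR adjusted p = 0.0114). Sox5, also SoxD, was at 16.0 ± 3.27 and 30.3 ± 5.45 CPM (SD, n = 3, edgeR adjusted p = 0.0236). Without FRC replicates 1 and 2 and RPF steady replicates 2 and 3 in turn, the adjusted p of Sox5 was 0.0717, 0.0656, 0.0882 and 0.0648. Sox12, of the SoxC group like Sox4, was at 4.95, 1.94 and 4.00 CPM in FRC and 18.6, 15.5 and 25.4 CPM in RPF (5.46-fold, edgeR adjusted p = 0.00346), so these paralogues lay on opposite sides. Tbx2 and Tbx3, paired T-box repressors, were both higher in RPF. Tbx2 (ENSMUSG00000000093, chromosome 11, 85832551 to 85841948) read 12.0, 23.4 and 17.6 CPM in FRC and 53.2, 36.0 and 82.8 CPM in steady-state RPF (3.25-fold, edgeR adjusted p = 0.0102). Tbx3 (ENSMUSG00000018604, chromosome 5, 119670669 to 119684724) read 13.0, 9.90 and 13.5 CPM in FRC and 28.5, 39.9 and 39.3 CPM in RPF (2.96-fold, edgeR adjusted p = 0.001). Tbx5, which had 0 counts in RPF, lies 147.9 kb from Tbx3. Leaving out FRC replicate 1 and RPF steady replicate 1 together, the libraries with 0 and 1 count of the 4 Y-linked genes, brought Tbx2 to an adjusted p of 0.0667 and Sox5 to 0.0765.

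The promoters of Sox12 and Gata1 are shown as the RPF-high members, other than Sox5, whose windows held one of the motifs. In Sox12 the capitals mark a forkhead match and in Gata1 a T-box match, each on the strand opposite to the one printed. The Gata1 window lies before a start inside the gene span of the table.
Sox12 (chr2:152398047-152398296, minus strand): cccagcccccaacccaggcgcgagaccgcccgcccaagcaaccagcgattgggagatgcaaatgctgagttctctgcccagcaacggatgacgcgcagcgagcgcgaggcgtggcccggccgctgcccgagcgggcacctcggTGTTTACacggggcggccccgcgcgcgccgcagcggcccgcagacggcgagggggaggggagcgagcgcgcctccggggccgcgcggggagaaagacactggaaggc
Gata1 (chrX:7967911-7968160, minus strand): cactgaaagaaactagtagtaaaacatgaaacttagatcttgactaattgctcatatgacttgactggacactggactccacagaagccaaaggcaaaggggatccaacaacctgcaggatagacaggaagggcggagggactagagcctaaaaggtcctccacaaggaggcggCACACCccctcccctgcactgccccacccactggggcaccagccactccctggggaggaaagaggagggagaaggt
A match describes letters only, and the share of windows with such letters is given above.

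**Figure D3:**
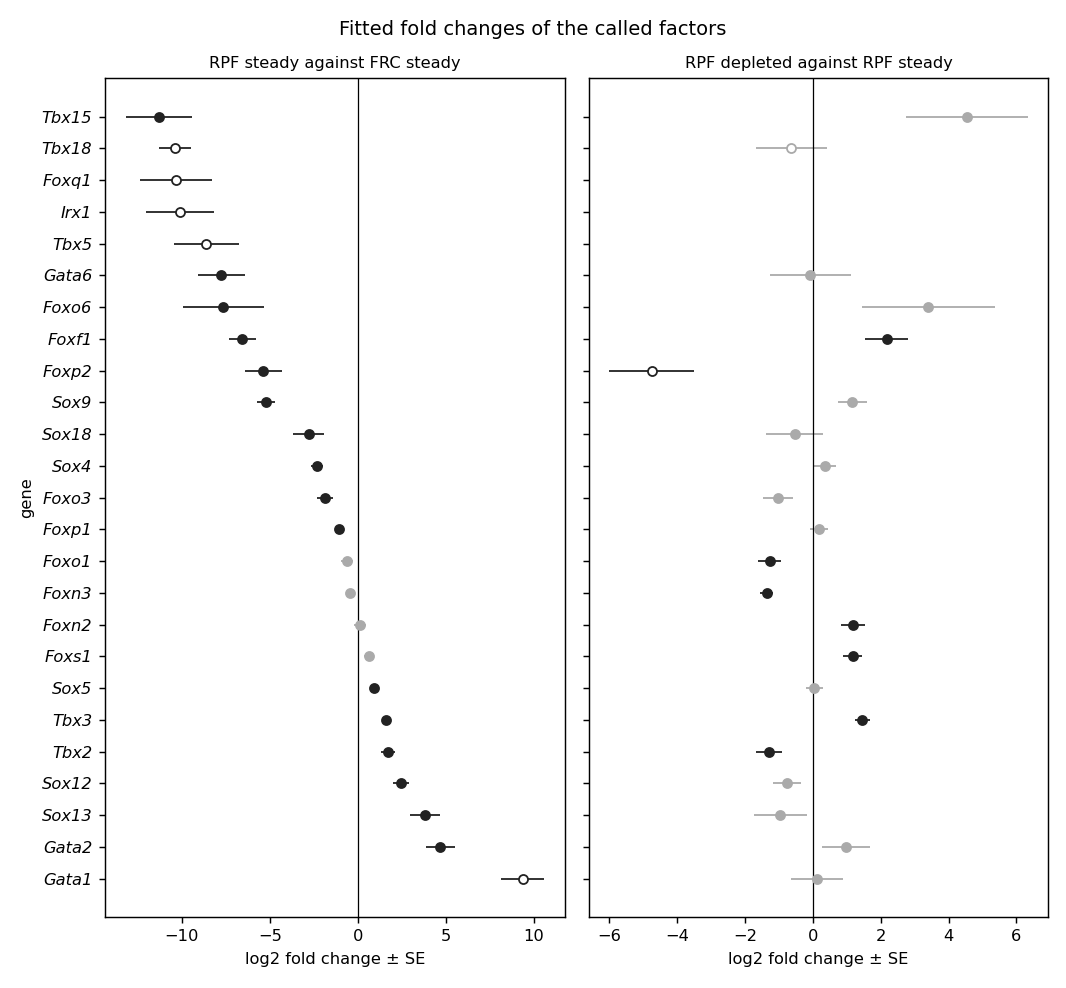
Fitted log2 fold change ± SE of the same 25 called members for steady-state RPF against FRC (left) and depleted against steady-state RPF (right). Black marks passed the edgeR threshold, grey marks did not, and open circles mark comparisons in which a group had 3 counts or fewer, where the fitted value is no bound. Foxq1, Irx1 and Tbx5 have no mark on the right, since they had 0 counts in all 6 RPF libraries. Tbx3 is called and right of 0 in both panels, while Tbx2 changes sides.

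Depleted RPF, from mice given toxin, were compared with steady-state RPF, from untreated mice. All mice bore the receptor, so effects of the toxin itself and of macrophage loss cannot be told apart. Tbx3, Foxs1, Foxn2 and Foxf1 rose, and Foxn3, Foxo1, Tbx2 and Foxp2 fell. Of the 45 tested members, 4 were called higher (8.9%) and 4 lower (8.9%), against 11.1% and 9.96% of all genes, or 21% either way. The members' share of 17.8% is thus close to that of all genes tested. The median log2 fold change was 0 over the tested members and -0.09 over all genes. Foxq1, Irx1 and Tbx5 are among these tested members but had 0 counts in every RPF library, so they could not be called here. They enter at a change of 0, which is where the median falls. Both comparisons share the steady-state RPF libraries, so their values stand side by side for single genes and are not related to each other. Without overlap between the libraries, 8 of the 45 tested members were higher and 7 of the 45 lower, against 21.4% and 23% of all genes.

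Tbx3 went from 28.5, 39.9 and 39.3 CPM at steady state to 105, 77.6 and 113 CPM after depletion. It rose 2.75-fold (log2 fold change 1.46 with SE 0.22 and edgeR adjusted p = 0.00196), with every depleted library above every steady-state one. Tbx2, its close relative, went the other way from 53.2, 36.0 and 82.8 CPM to 30.9, 18.7 and 20.6 CPM. Tbx2 fell 2.45-fold (log2 fold change -1.29 with SE 0.37 and edgeR adjusted p = 0.0376), and its highest depleted library lay just under its lowest steady-state one. The call of Tbx3 held in all 19 alternatives. That of Tbx2 was lost without FRC replicate 3 (0.0524), RPF steady replicates 1 (0.078) and 3 (0.143), or RPF depleted replicates 2 (0.124) and 3 (0.117).

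Foxs1 (ENSMUSG00000074676, chromosome 2, 152931898 to 152933208), a forkhead factor of pericytes and neural crest derivatives, was at 93.4, 72.3 and 80.5 CPM at steady state and 228, 186 and 144 CPM after depletion. It rose 2.27-fold (log2 fold change 1.18 with SE 0.28 and edgeR adjusted p = 0.0178), and the groups did not overlap. FRC had 35.6, 47.5 and 76.6 CPM (edgeR adjusted p = 0.143 against steady-state RPF, and 0.021 without FRC replicate 3). Mural markers summed to 1864 to 2239 CPM after depletion and 1247 to 1457 CPM before, with 3 of 7 called higher (Mcam, Notch3 and Des) and 2 lower (Abcc9 and Kcnj8), and their part in this result was not tested. Foxn2, a broadly expressed forkhead gene, rose from 16.0 ± 4.99 to 36.3 ± 11.5 CPM, or 2.27-fold (SD, n = 3, edgeR adjusted p = 0.0371). Foxf1 went from 0.894, 0.158 and 1.85 CPM to 5.17, 4.24 and 3.39 CPM and so rose 4.41-fold (edgeR adjusted p = 0.0402), which left it far under the 74.2 to 105 CPM of FRC.

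The call of Foxs1 was lost without RPF steady replicates 2 and 3 or RPF depleted replicate 1, at 0.0742, 0.0651 and 0.0667. That of Foxn2 was lost without RPF steady replicates 1 and 2 or RPF depleted replicates 2 and 3, at 0.116, 0.102, 0.139 and 0.102. That of Foxf1 was lost on leaving out any library other than RPF steady replicates 2 and 3, at 0.0586 to 0.116, and it was at 0.144 when the 2 RPF groups were fitted alone. Sox9 stood at 1.36, 4.11 and 1.79 CPM before and 5.86, 4.75 and 5.69 CPM after depletion, without overlap (edgeR adjusted p = 0.0929, and 0.0148 without RPF steady replicate 2).

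Foxn3 (ENSMUSG00000033713, chromosome 12, 99190078 to 99563582), a forkhead repressor, fell from 39.7, 43.4 and 37.0 CPM to 16.8, 14.9 and 15.3 CPM. It fell 2.55-fold (log2 fold change -1.35 with SE 0.19 and edgeR adjusted p = 0.00123), with narrow spread in both groups, and this call held in all 19 alternatives. Foxp2 fell from 34, 78 and 1 counts to 0, 2 and 1 counts, a 34.4-fold ratio whose 95% counting interval spans 11.5 to 169 (edgeR adjusted p = 0.0254). Its groups overlapped, since RPF steady replicate 3 had 1 count. In limma-voom its adjusted p was 0.223, and leaving out any RPF library other than RPF steady replicate 3 gave 0.0528 to 0.0867. When the 2 RPF groups were fitted alone, Foxp2 did not pass the filter on low counts and was not tested.

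**Figure D4:**
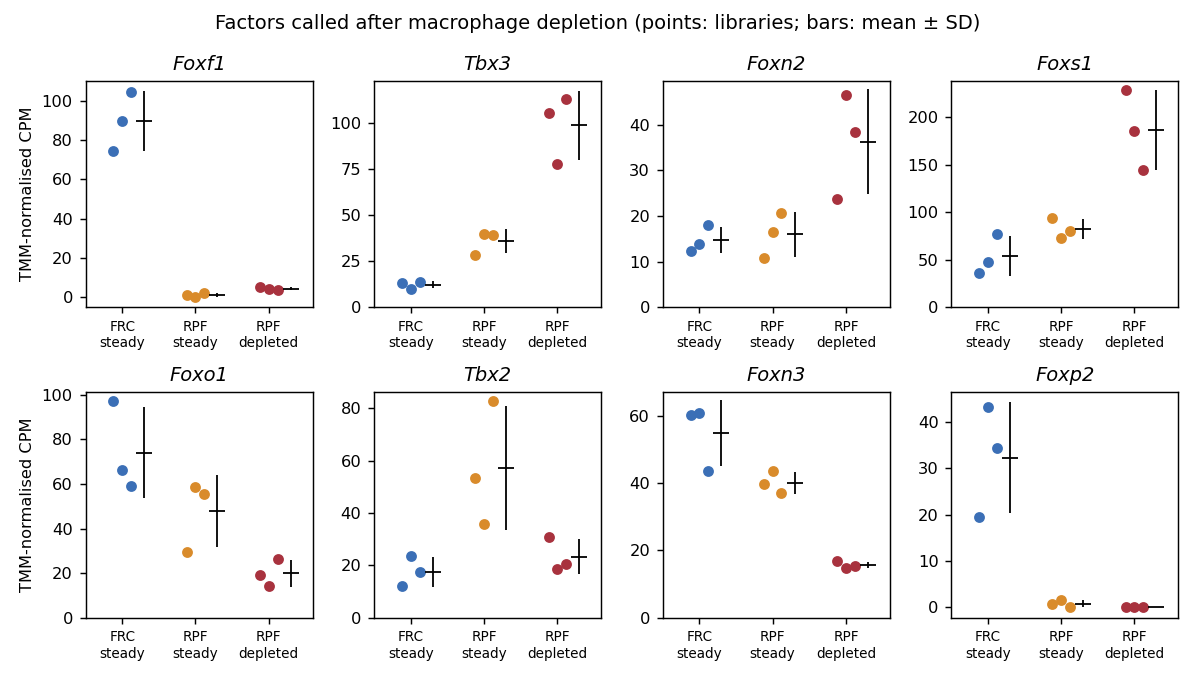
TMM-normalised CPM of the 8 members called after depletion, with 1 point per library in each of the 3 groups and bars for the mean ± SD (n = 3). Tbx3, Foxn2 and Foxs1 were highest in depleted RPF and Foxo1 and Foxn3 lowest there, while Foxf1 and Foxp2 were far higher in FRC than in either RPF group.

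Of the FOXO genes, Foxo1 fell after depletion and Foxo3, Foxo4 and Foxo6 did not pass the threshold. Foxo1 (ENSMUSG00000044167, chromosome 3, 52268336 to 52353221), an insulin-regulated forkhead factor, was at 29.5, 58.6 and 55.5 CPM at steady state and 19.1, 14.3 and 26.2 CPM after depletion. It fell 2.41-fold (log2 fold change -1.27 with SE 0.34 and edgeR adjusted p = 0.0272), the depleted libraries lying below the steady-state ones. Without RPF steady replicates 2 and 3 or RPF depleted replicates 1 and 2 in turn, its adjusted p was 0.0974, 0.0885, 0.0853 and 0.094. B cell markers summed to 226 to 278 CPM in FRC, 92.0 to 214 CPM in steady-state RPF and 16.7 to 38.5 CPM in depleted RPF. Of the 5 tested, 1 was called lower after depletion and 0 higher, and their part in the level of Foxo1 was not tested. Foxo3 was at 14.0, 14.3 and 19.8 CPM before and 7.06, 9.55 and 6.98 CPM after (edgeR adjusted p = 0.146, and 0.0265 without FRC replicate 2). Foxo4 was at 2.92, 1.16 and 1.72 CPM before and 0.632, 0.081 and 0.424 CPM after (edgeR adjusted p = 0.216). The groups did not overlap for Foxo3 and Foxo4 either. Foxo6 went the other way in RPF depleted replicate 3 alone, with 4 counts in all at steady state and 0, 0 and 48 counts after depletion (edgeR adjusted p = 0.27).

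Of 16 genes known as FOXO targets, a list chosen with earlier results of these data known, 15 were tested. After depletion 7 were called lower and 1 higher, against 9.96% and 11.1% of all genes tested. Their median log2 fold change was -1.36 against -0.09 over all genes. A link of this list to the level of Foxo1 was not tested. Sesn1, a sestrin that restrains mTORC1, fell from 39.8, 43.9 and 45.0 CPM to 8.90, 5.48 and 7.30 CPM (edgeR adjusted p = 0.000238). Pik3ip1, an inhibitor of PI3 kinase, fell from 23.1, 24.3 and 34.2 CPM to 3.04, 6.64 and 4.11 CPM (edgeR adjusted p = 0.00119). Txnip, which curbs thioredoxin and glucose uptake, fell from 1018 to 278 CPM, or 3.67-fold (edgeR adjusted p = 0.000218). The cyclin Ccng2, the ubiquitin ligase gene Fbxo32, Cited2 and Gadd45a also fell. Klf2, a quiescence factor, rose from 55.4 to 147 CPM, or 2.65-fold (edgeR adjusted p = 0.0141). Between the organs the same list had 6 genes lower and 2 higher in RPF, against 14.4% and 11.5% of all genes tested. Its median log2 fold change was -0.10 against -0.02 over all genes. Irs2, an insulin receptor substrate, was at 1297 CPM in FRC and 112 CPM in RPF (edgeR adjusted p = 3.35e-06). The 2 higher in RPF were Txnip, at 383 and 1018 CPM, and Cited2, at 224 and 331 CPM (edgeR adjusted p = 0.000552 and 0.0373).

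The promoter of Txnip is shown since Txnip was the most abundant of the targets that fell. Its window held a forkhead match, as did windows of Bcl2l11 and Trim63 among the 14 listed targets in the RefSeq table. That is 3 of their 17 windows, against 3.17% of all windows. Bcl2l11 was not called after depletion (edgeR adjusted p = 0.666) and Trim63 was not tested. The capitals mark the forkhead letters and a T-box match further upstream.
Txnip (chr3:96557707-96557956, plus strand): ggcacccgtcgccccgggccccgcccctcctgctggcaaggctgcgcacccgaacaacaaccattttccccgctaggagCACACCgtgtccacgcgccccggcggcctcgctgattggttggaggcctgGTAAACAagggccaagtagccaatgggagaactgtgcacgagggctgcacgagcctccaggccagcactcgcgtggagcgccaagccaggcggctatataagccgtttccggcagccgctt
Of the targets that fell and had a window, Sesn1, Ccng2, Pik3ip1, Cited2 and Gadd45a held no exact forkhead letters there, which says nothing about binding elsewhere.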

How the data were processed

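PolyA RNA of 9 libraries in 3 groups of 3 was measured. The deposited table holds raw read counts per Ensembl gene, made by the authors and used as they are. Per the submitters' processing notes, cutadapt 1.10, Bowtie2 2.2.8, STAR 2.5.3a, HTSeq 0.6.1p1 and build mm10 were used. No source used here states the strand setting or annotation, so reads of a gene and an overlapping antisense gene cannot be told apart. The authors' median transcript length served to scale levels per length. A further 24 per-sample columns were not used, and some genes are not reported here.

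Members and gene lists were chosen with earlier results of these data known. Counts of all 27370 genes were filtered with filterByExpr (15103 left) and fitted by edgeR 4.0.16 (R 4.3.3), using TMM factors, 1 term per group and its robust quasi-likelihood test (6 residual degrees of freedom, two-sided). A call means an adjusted p under 0.05 by Benjamini-Hochberg over all genes tested. Levels are TMM-normalised CPM. A group at 0 counts was set to a floor of 3 counts over the group, and groups with 1 to 3 counts have an exact 95% interval that covers counting error only. Nothing says that libraries of a group are independent beyond their pools of 2 mice, and FRC and steady-state RPF come from the same 6 untreated mice of 12 in all, while the test treats their libraries as independent.

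Named members were those called at a mean of at least 1 CPM, those with at least 10 CPM in a group, the most abundant of each family, neighbours within 500 kb and called list genes. Other members are named as examples, chosen after their values were seen. Promoters came from RefSeq (GRCm38.p6), the same genome as mm10. Alternatives were RLE and upper quartile scaling, other filters, DESeq2 1.42.0, limma-voom (limma 3.58.1), a non-robust prior, a 1.5-fold change as null, the compared groups alone and leaving out libraries. Plots used matplotlib 3.10.9.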

Additional observations from a re-analysis of the deposited data

How the results depend on the processing

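No called member changed direction under any of the 19 alternatives run. Of the 8 members called after depletion 2 kept their call in all of them, and of the 22 called between the organs 12 did. In the test against a 1.5-fold change, 1 member was called higher and 2 lower after depletion, and the counts over all genes were 1670 after depletion and 2542 between the organs, against 3176 and 3908. Leaving out single libraries, the members called after depletion numbered 2 to 3 higher and 1 to 5 lower, and those between the organs 6 to 8 higher and 9 to 17 lower. Without FRC replicate 1 and RPF steady replicate 1 together, 3 members were called higher and 2 lower after depletion, and 5 higher and 8 lower between the organs. The depletion calls then lost were Foxf1, Foxn2, Foxp2 and Tbx2. The median log2 fold change of all genes between the organs was -0.02 with TMM and 0.14 with upper quartile scaling, under which the members called were 8 higher and 14 lower. No paired analysis was possible because the labels give no replicate numbers shared between groups and do not tie libraries to mice. The near absence of Y-linked counts, which marks pools of female mice, sets FRC replicate 1 and RPF steady replicate 1 apart. Nothing matches the other libraries to each other. The depleted libraries had 4218, 3650 and 4513 counts of the 4 Y-linked genes, so none of them was such a pool. The part of sex in the depletion comparison was not tested. Depth limits the members under about 1 CPM, where 1 library often holds most counts.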

Other observations

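Several members had counts in few libraries, and most of those named here were left out by the filter on low counts. Foxa2, a liver and lung endoderm factor, had 53 counts in RPF depleted replicate 2 and 0 in the other 8 libraries. Foxa3 had 36 counts in the same library, 3 in RPF depleted replicate 1 and 10 in RPF steady replicate 1. The same library, RPF depleted replicate 2, also held 87 of the 88 Tbx15 counts of the depleted group. Sox10, the neural crest and glial factor, had 22 counts in FRC replicate 1 alone, where Schwann cell and glia markers summed to 19.5 CPM, against 1.19 and 17.3 CPM in FRC replicates 2 and 3. Sox11, of the SoxC group, had 34, 2 and 115 counts in FRC and at most 7 in any RPF library. Foxh1, which mediates Nodal signals in the embryo, was tested and had counts in every depleted library. It had 95, 293 and 130 counts in depleted RPF, 11, 0 and 0 in steady-state RPF and 1 in all of FRC. The RPF groups did not overlap (edgeR adjusted p = 0.0638 after depletion).

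Related genes outside the name rule were measured as well. Trps1, a repressor with a Gata-type zinc finger, was at 7.02, 2.17 and 2.81 CPM in steady-state RPF and fell to 0.775, 0.999 and 0.134 CPM after depletion (edgeR adjusted p = 0.0425). Mga, a large T-box protein that pairs with Max, was at 23.4 CPM in FRC and 12.5 CPM in steady-state RPF (edgeR adjusted p = 0.038). Lmo2, a bridging partner of Gata1 and Gata2, rose after depletion from 32.7 to 68.9 CPM, or 2.10-fold (edgeR adjusted p = 0.00335). Tal1, which joins the same complex, had 0 counts in FRC and was at 0.782 and 1.48 CPM in steady-state and depleted RPF.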
